A study of Homo sapiens with 40 samples.

Results

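The genes described here are 10 that encode nuclear lamins and proteins of the inner nuclear membrane, namely LMNB1, LMNB2, LMNA, EMD, LBR, SUN1, SUN2, TMPO, LEMD3 and BANF1. They were taken by symbol from the 57992 genes of the deposited count table, and each symbol had 1 row. APEX-seq biotinylates RNA beside the peroxidase APEX2 and captures it on streptavidin beads. In this series the method was combined with metabolic labelling by an electron-rich thionucleoside in HEK293T, a human embryonic kidney cell line, and RNA was counted before capture (input) and after it (enriched) in 40 libraries of 18 groups. The question for these genes is whether their mRNAs were captured beside the lamina, where their proteins reside, and how that compares with the other locations.

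All cells carried an APEX2 construct. MITO places it in the mitochondrial matrix, ERM at the endoplasmic reticulum membrane, NES in the cytosol and LMNB1 at the nuclear lamina. In the s6G arm, run with all 4 constructs, cells had 100 µM 6-thioguanosine for 5 h, then biotin-phenol and hydrogen peroxide. The s4U arm, run with MITO, had 100 µM 4-thiouridine for 5 h in its place. The arms are named by the sample titles. One other label names s4U for the ERM enriched and LMNB1 s6G libraries, where titles and series design name s6G. The APEX-only arm (MITO and LMNB1) had biotin-phenol and peroxide but no nucleoside, and the unlabelled arm (MITO and LMNB1) had neither nucleoside nor biotin-phenol. Each arm had 2 biological replicates of input and of enriched RNA, except ERM with 4. The promoter of the constructs, whether they were integrated, and the lamin B1 sequence used were not given in the sources used here. Each construct is present in its own cells only, so a difference between constructs and one between cell populations or library batches cannot be told apart. All values come from whole cultures, in which more RNA per cell and more cells with the RNA cannot be told apart.

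The nuclear lamina is a meshwork of intermediate filament proteins, the lamins, under the inner nuclear membrane. It is anchored there by membrane proteins made on the rough endoplasmic reticulum, or inserted into it after synthesis, which then diffuse to the inner membrane and are held by lamins and chromatin. Lamins themselves are made on cytosolic ribosomes and imported through nuclear pores, and B-type lamins stay attached to the membrane by a farnesyl group.

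Among the lamins, LMNB1 (ENSG00000113368, chromosome 5, 126776623 to 126837020) and LMNB2 (ENSG00000176619, chromosome 19, 2428166 to 2456959) encode the B-type lamins, and LMNA (ENSG00000160789, chromosome 1, 156082573 to 156140081) encodes lamins A and C. A group of 3 genes carries the LEM domain, which binds BANF1. EMD (ENSG00000102119, chromosome X, 154379295 to 154381523) encodes emerin, anchored by a C-terminal tail. TMPO (ENSG00000120802, chromosome 12, 98515573 to 98550351) encodes the LAP2 isoforms, of which the alpha form is soluble and others span the membrane. LEMD3 (ENSG00000174106, chromosome 12, 65169583 to 65248355) encodes MAN1, an inhibitor of SMAD signalling. LBR (ENSG00000143815, chromosome 1, 225401502 to 225428821) encodes the lamin B receptor, which also has sterol reductase activity. SUN1 (ENSG00000164828, chromosome 7, 815557 to 874934) and SUN2 (ENSG00000100242, chromosome 22, 38734734 to 38755998) encode inner partners of the LINC complex, which links lamina and cytoskeleton. BANF1 (ENSG00000175334, chromosome 11, 66002503 to 66004149) encodes the small soluble protein that bridges DNA and LEM proteins. Positions are gene spans of RefSeq on GRCh38.p14, and counts are per gene, so isoforms are not resolved.

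Input libraries held 3514076 to 12602028 counted reads, labelled enriched libraries 2720817 to 14496768 and the 4 unlabelled enriched libraries 123341 to 3876715. All 10 genes passed the expression filter in every comparison. The ERM libraries fell into 2 sets that the labels do not name. Libraries 1 and 2 held 5342584 to 6664875 reads and libraries 3 and 4 held 12382757 to 14496768. The chi-square per gene between libraries of 1 group is near 1 where they differ by sampling alone. For ERM it was 2.98 to 5.73 within a set and 11.6 to 23.7 between sets. In groups of the other constructs it ran from 5.21 (unlabelled enriched MITO) to 51.4 (s6G enriched MITO). These values use library totals without TMM scaling and rise with depth. They therefore cannot tell whether the difference between the ERM sets is larger than that in other groups. Because of the 2 sets, ERM results are also given within each set, in fits that leave out the other set and were added after the data were seen. The smallest counts of the 10 genes counts all fell in the first unlabelled enriched MITO library, from 7 (SUN2 and LEMD3) to 41 (LBR). Of 6 genes fixed as HEK293T genes, VIM lay at 158 to 406 CPM (counts scaled to a common library total) over the inputs and NEFM at 27.3 to 337, KRT18 at 16.3 to 45.7, KRT8 at 5.35 to 49.7 and PAX2 at 0.404 to 12.4, while LHX1 reached 0.388. The sum of 6 genes of other cell types was 0.502 to 5.97 CPM, with PTPRC and INS at 0.

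The levels below are CPM after TMM scaling within the set of libraries fitted together (MITO; ERM and NES; LMNB1; or all inputs), so the same input differs slightly between sets. Counts were tested with edgeR's quasi-likelihood test, and a gene was called at an adjusted p under 0.05 over all genes tested. Log2 fold changes are given ± SE.

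Before capture, LMNB1 was far higher in cells of the LMNB1 construct, and edgeR called no other gene of the group in any of 13 comparisons among inputs. Of the 117 results of these 9 genes 5 had an unadjusted p under 0.05 and DESeq2 called 1, LBR in ERM over MITO cells (0.44, adjusted p = 0.0457), where it called 5.16% of the genes it gave an adjusted p (the base of all DESeq2 shares here). From 0% to 2.44% of all genes were called in the 13 comparisons, with 0.562% between NES and MITO cells and 0.0261% between ERM and NES cells. Over the 14 inputs of the other constructs LMNB1 lay at 121 to 322 CPM, with a median of 171. In LMNB1 cells the s6G inputs lay at 5250 and 4130 CPM, the APEX-only inputs at 2730 and 2160, and the unlabelled inputs at 3070 and 2290. Every LMNB1 input was above every other input. Against MITO inputs of the same arm, the log2 difference was 4.86 ± 0.30 with s6G (29.1-fold, edgeR adjusted p = 9.12e-08, n = 2), 3.21 ± 0.27 for APEX only (9.24-fold, adjusted p = 4.73e-06) and 3.37 ± 0.28 for the unlabelled arm (10.4-fold, adjusted p = 2.89e-06). Of all genes tested in these comparisons, 0.307%, 0.575% and 0.451% were called. Reads of the LMNB1 gene and of a lamin B1 sequence in the construct cannot be told apart in these counts, so LMNB1 values in LMNB1 cells are those of both together.

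Within LMNB1 cells, both s6G inputs held more LMNB1 reads than any input of the other arms. Set against the APEX-only inputs, the difference was 0.93 ± 0.22 (95% interval 0.47 to 1.40) and missed the threshold (edgeR adjusted p = 0.148, with 0.127% of all genes called), while DESeq2 called it (0.96, adjusted p = 0.000604, with 2.03% of all genes called). In MITO cells, which carry no lamin B1 construct, the s6G inputs lay lower instead, at 170 and 152 CPM against 206 and 322 in the APEX-only arm (-0.70 ± 0.30, edgeR adjusted p = 0.545). The difference between these responses was 1.66 ± 0.36 (95% interval 0.89 to 2.42), with an unadjusted edgeR p of 0.000255 and an adjusted p = 1. When no expression filter was applied, the adjusted p was 0.00018, and the share of all genes called in that fit is not given here. It was not called with DESeq2, which called 0% of all genes. Nor was it called with RLE scaling, total counts, the compared groups alone, the replicate block or a filter at 5 CPM.

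The other lamins varied little among inputs. LMNB2 ranged from 452 to 702 CPM over the 20 inputs (1.55-fold between lowest and highest) and LMNA from 69.0 to 127 (1.84-fold). LMNA was low in ERM and NES cells, at 69.9 to 75.2 CPM and at 81.0 and 70.7, though the lowest input was one of the unlabelled MITO arm. The s6G difference between ERM and MITO inputs was -0.42 ± 0.16 (edgeR adjusted p = 0.159, 2.44% of all genes called).

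Among membrane proteins, SUN1 (102 to 165 CPM), TMPO (217 to 366), LBR (222 to 399), EMD (151 to 271) and SUN2 (34.0 to 61.2) each stayed within 1.80-fold across the inputs. LBR was lowest in the s4U inputs of MITO cells, at 225 and 222 CPM. Its mean was highest in NES cells, at 399 and 368, though ERM inputs reached 383. LEMD3 had a wider range, 2.93-fold, and lay low wherever s6G had been given. Its s6G inputs held 39.4 and 24.1 CPM (MITO), 38.2, 32.1, 31.4 and 26.7 (ERM), 33.4 and 28.8 (NES), and 41.5 and 29.8 (LMNB1). The inputs without s6G held 39.5 to 70.6 CPM, so the ranges met only at the first LMNB1 s6G input, which exceeded the lowest s4U input. The s6G difference from the APEX-only arm was -0.80 ± 0.27 in LMNB1 cells (edgeR adjusted p = 0.281) and -0.60 ± 0.37 in MITO cells (adjusted p = 0.723, 0.0528% of all genes called), neither past the threshold. BANF1 spanned 132 to 424 CPM, 3.21-fold. Its mean was highest in ERM cells, at 299, 270, 376 and 424, though an NES input and an s4U input of MITO reached 280. Over MITO inputs with s6G it lay at 0.28 ± 0.28 in ERM libraries 1 and 2 (edgeR adjusted p = 0.796, 0.202% of all genes called). In libraries 3 and 4 it lay at 0.77 ± 0.28 (adjusted p = 0.109, 6.51% called).

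**Figure D1:**
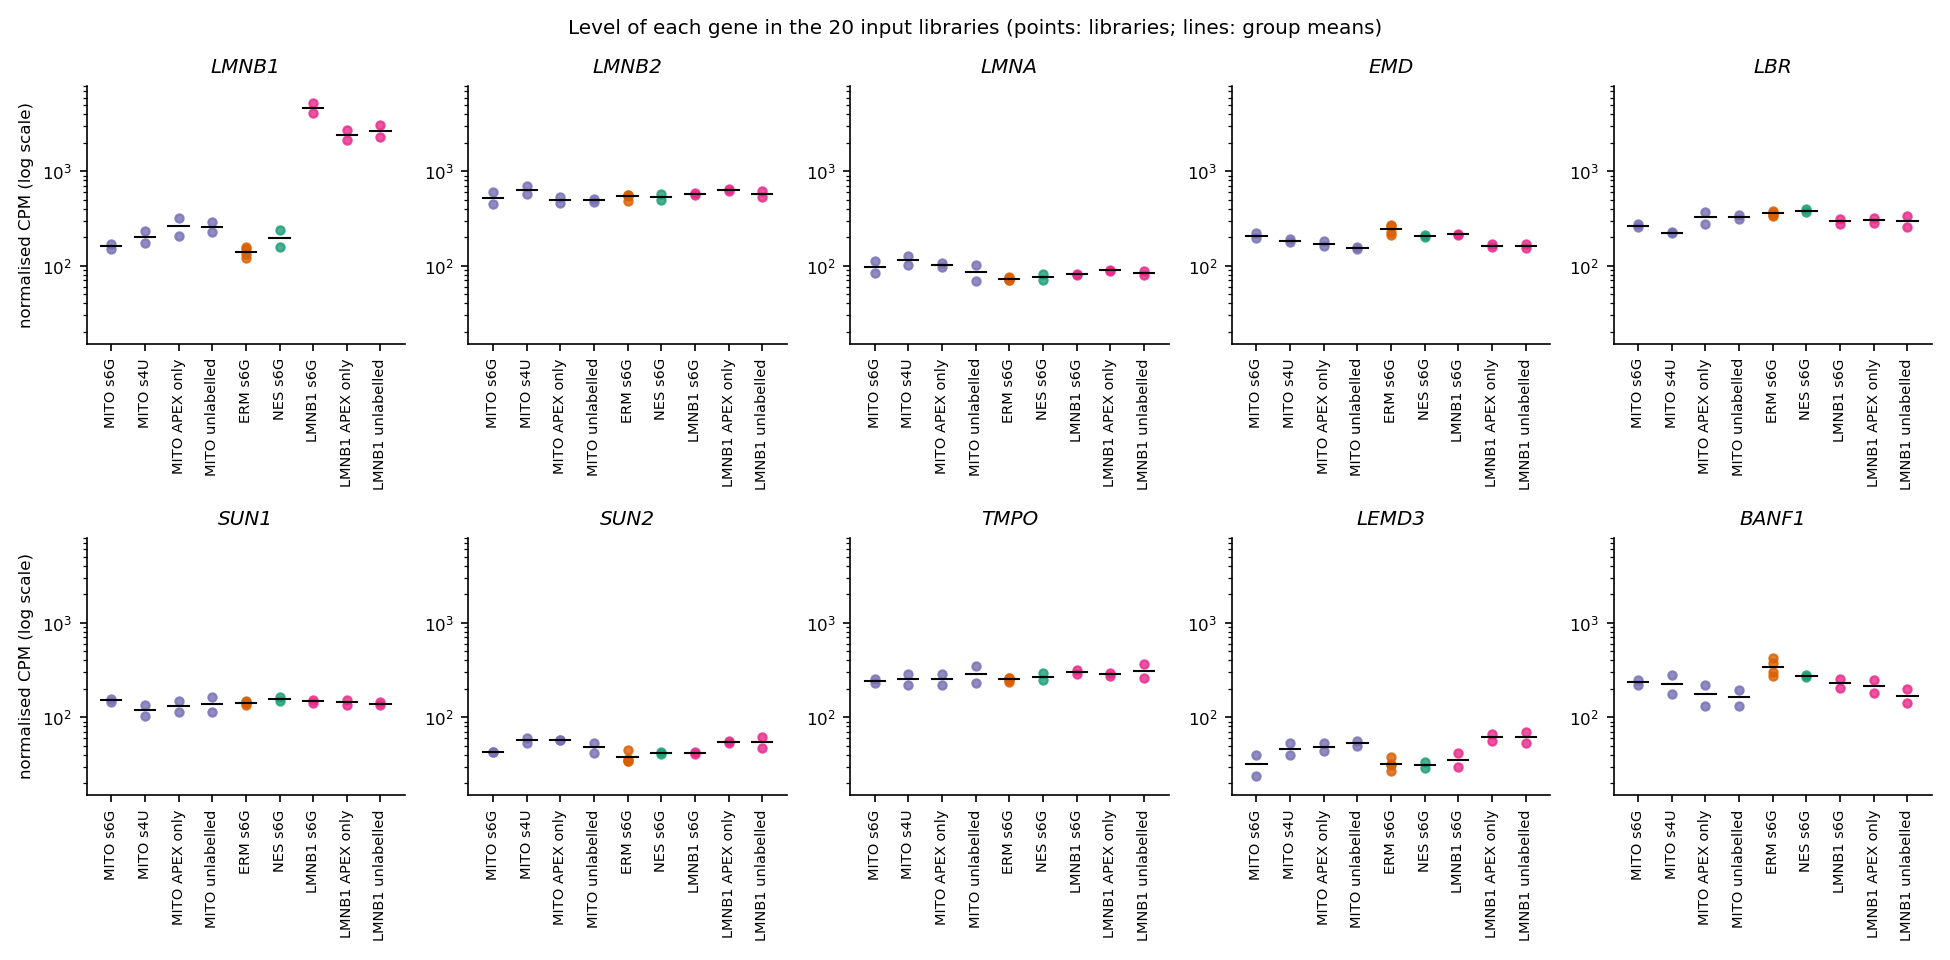
Normalised CPM (log axis) of each gene in the 20 input libraries, with 1 point per library, a line at each group mean and colours for constructs. LMNB1 in the LMNB1 construct (2160 to 5250 CPM) stands above all other inputs (121 to 322 CPM), and no other gene shows a step of this kind.

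With s6G at the ER membrane and in the cytosol, LEMD3, TMPO and LMNB2 rose with both constructs, EMD, BANF1 and SUN1 fell with both, and SUN2 rose and LMNA fell with ERM. The count was 4 higher and 4 lower of 10 for ERM, where 34.3% of all tested genes were called higher and 28.9% lower (63.2% in all). For NES it was 3 higher and 3 lower, with 28.7% and 26.4% of all genes (55.1% in all). With so large a share of the transcriptome called, the counts lie close to the background. The median log2 fold change of the group was 0.10 for ERM and -0.10 for NES, against 0.11 and 0.01 over all genes tested.

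LEMD3, the gene of MAN1, had the highest fold change of the group with both constructs. For ERM its enriched libraries held 96.4, 98.0, 86.8 and 99.0 CPM and its inputs 37.5, 31.1, 30.6 and 26.1. Every enriched library exceeded every input, by 1.61 ± 0.12 on the log2 scale (3.05-fold, edgeR adjusted p = 2.67e-09, n = 4). For NES the values were 89.4 and 81.7 CPM after capture and 32.5 and 28.3 before it (1.49 ± 0.17, adjusted p = 1.04e-06, n = 2).

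TMPO rose from 231, 253, 242 and 255 CPM to 394, 436, 388 and 337 with ERM (0.66 ± 0.11, edgeR adjusted p = 2.24e-05, n = 4). With NES it rose from 284 and 242 CPM to 505 and 481 (0.91 ± 0.15, adjusted p = 5.62e-05, n = 2). The groups did not overlap with either construct. LMNB2, whose protein is made in the cytosol, rose by 0.57 ± 0.11 with ERM (adjusted p = 0.000211) and by 0.73 ± 0.16 with NES (adjusted p = 0.000842). Its enriched libraries held 679 to 879 CPM with ERM and 867 and 851 with NES, against inputs of 472 to 551 and of 552 and 487.

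BANF1 and EMD fell most. BANF1 lay at 294, 262, 367 and 414 CPM in ERM inputs and at 77.9, 112, 126 and 137 after capture (-1.56 ± 0.16, edgeR adjusted p = 1.63e-07). For NES it lay at 272 and 262 CPM before and 117 and 123 after capture (-1.15 ± 0.23, adjusted p = 0.000362). Emerin's mRNA behaved likewise, with no overlap between the groups: EMD inputs of ERM held 266, 255, 208 and 222 CPM and the enriched libraries 69.2, 81.0, 101 and 116. The log2 fold change of EMD was -1.37 ± 0.15 with ERM (adjusted p = 1.77e-07) and -1.15 ± 0.21 with NES (adjusted p = 0.000131). With ERM libraries 1 and 2 alone EMD fell by 1.76 ± 0.13 and with libraries 3 and 4 alone by 0.98 ± 0.11 (adjusted p = 5.35e-14 and 2.45e-09). This difference between the sets, which called 61.9% and 58.1% of all genes, was not tested. BANF1 lay at -1.52 and -1.56 in them. LEMD3 (1.53 and 1.71), TMPO (0.81 and 0.55), LMNB2 (0.53 and 0.64) and SUN2 (0.74 and 1.06) were also called in both sets.

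SUN1 and SUN2 differ in their calls. SUN2 rose with ERM from 44.6, 35.0, 33.7 and 33.2 CPM to 67.4, 62.8, 72.3 and 66.8 (0.88 ± 0.12, edgeR adjusted p = 3.7e-06), and with NES it lay at 40.1 and 42.1 CPM before and 40.0 and 49.4 after capture (0.12 ± 0.17, adjusted p = 0.586). SUN1 fell with NES from 145 and 160 CPM to 78.3 and 80.9 (-0.94 ± 0.13, adjusted p = 1.05e-05). With ERM it fell by a smaller amount, from 131 to 144 CPM down to 107 to 115 (-0.31 ± 0.09, adjusted p = 0.00642). Scaling by total counts instead of TMM shifted the all-gene median by 0.31 in this comparison. The SUN1 change with ERM was then -0.01 ± 0.10, and that of LMNA turned from -0.27 ± 0.11 (adjusted p = 0.0496) to 0.04 ± 0.11 (adjusted p = 0.77). The ERM count was then 6 higher and 2 lower, with LMNB1 (0.49) and LBR (0.33) called higher, where 44.5% of all genes were called higher and 21% lower, and the higher share of all calls rose from 54.3% to 67.9%. The LMNA call was also lost when any of 5 of the 8 ERM libraries was left out, enriched libraries 1 and 2 and inputs 1, 2 and 3 (adjusted p = 0.0549 to 0.159). Within the sets of ERM libraries, LMNA lay at -0.43 ± 0.14 in libraries 1 and 2 (adjusted p = 0.00706) and at -0.10 ± 0.12 in 3 and 4 (adjusted p = 0.466). SUN1 lay at -0.39 ± 0.12 (adjusted p = 0.00516) and -0.21 ± 0.10 (adjusted p = 0.0817).

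LMNB1 and LBR were not called with either construct when all libraries were fitted. LBR enriched libraries of ERM (350, 361, 368 and 333 CPM) overlapped its inputs (339, 327, 374 and 355), with a fold change of 0.02 ± 0.10. With NES, LBR lay at 388 and 362 CPM before and 289 and 309 after capture (-0.32 ± 0.14, edgeR adjusted p = 0.0521, and 0.0106 with the replicate block, which called 59.8% of all genes). LMNB1 lay at 0.18 ± 0.12 with ERM (95% interval -0.07 to 0.44) and -0.04 ± 0.17 with NES (-0.41 to 0.32). In ERM libraries 3 and 4 alone LMNB1 was called, at 0.36 ± 0.13 (edgeR adjusted p = 0.0186), and in 1 and 2 it lay at 0.05 ± 0.14.

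Tested directly without the replicate block, ERM and NES differed in 0 of the 10 genes with edgeR, where 0.0064% of all genes were called. Of the 10 genes 2 had an unadjusted p under 0.05, and DESeq2 called 2, with 5.59% of all genes. The nearest were the SUN genes, at 0.63 ± 0.16 for SUN1 (95% interval 0.28 to 0.97, adjusted p = 0.135) and 0.77 ± 0.21 for SUN2 (0.32 to 1.21, adjusted p = 0.15). Both were called with the replicate block (SUN1 0.63, adjusted p = 0.0161, and SUN2 0.78, adjusted p = 0.0196), as were 6.1% of all genes. With ERM libraries 1 and 2 alone, where 5.27% of all genes were called, SUN1 (0.56 ± 0.17, adjusted p = 0.0459) and EMD (-0.61 ± 0.18, adjusted p = 0.0369) were called. With libraries 3 and 4 alone, where 9.15% were, SUN1 (0.72 ± 0.15, adjusted p = 0.0027) and SUN2 (0.93 ± 0.19, adjusted p = 0.00268) were called, and EMD lay at 0.15 ± 0.16. In the authors' deposited table of ERM over NES, the log2 fold change was 0.63 for SUN2 (unadjusted p = 0.000176), 0.53 for SUN1 (p = 0.000223), 0.28 for LBR (p = 0.0312) and -0.30 for TMPO (p = 0.0376). An unadjusted p under 0.05 stood in that table for 8.42% of all genes with a p. Its fold change is headed ERM over NES with no input named, so it may not measure the difference of enrichments tested above. In it EMD stood at 0.04 and LMNB1 at -0.23. The mean enriched levels were 91.7 CPM with ERM and 91.7 with NES for EMD, and 156 and 187 for LMNB1.

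At the lamina, the LMNB1 construct with s6G captured LEMD3 and SUN2 above input and left EMD, LBR, TMPO and BANF1 below it. This made 2 higher and 4 lower of 10, where 5.37% of all tested genes were called higher and 7.64% lower (13% in all). With total counts the same counts held, where 9.35% of all genes were called higher and 5.32% lower, a higher share of all calls of 63.7% in place of 41.3%. The median of the group was -0.51, against 0.13 over all genes. None of the 3 lamins was called.

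LEMD3 rose from 44.7 and 32.0 CPM to 83.2 and 85.6 (1.14 ± 0.27, 2.20-fold, edgeR adjusted p = 0.0152, n = 2). SUN2 rose from 44.2 and 46.5 CPM to 80.7 and 78.9 (0.81 ± 0.23, adjusted p = 0.0357). The SUN2 call was lost when any of the 4 libraries of the arm was left out (adjusted p = 0.125 to 0.287), with its fold change at 0.70 to 0.86. The LEMD3 call was lost without either enriched library (1.10 and 1.15, adjusted p = 0.0741 and 0.0722) or the second input (0.79, adjusted p = 0.264). SUN1, in contrast to its fall with NES, lay at 163 and 154 CPM before and 177 and 178 after capture (0.17 ± 0.17, adjusted p = 0.567).

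TMPO fell from 338 and 312 CPM to 148 and 147 (-1.14 ± 0.21, edgeR adjusted p = 0.00439, n = 2). LBR fell from 338 and 294 CPM to 141 and 150 (-1.12 ± 0.19, adjusted p = 0.00258). The enriched replicates of both genes lay close together, and far below the inputs. EMD fell from 235 and 227 CPM to 118 and 89.5 (-1.16 ± 0.20, adjusted p = 0.00315). BANF1 fell from 274 and 221 CPM to 125 and 65.9 (-1.37 ± 0.29, adjusted p = 0.00835), and its call was lost without the second enriched library, the lower one (-0.95 ± 0.29, adjusted p = 0.0862).

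Of the lamins, LMNA lay at 86.8 and 88.8 CPM before and 48.1 and 59.7 after capture (-0.70 ± 0.23, edgeR adjusted p = 0.0658, and -0.71 with adjusted p = 0.0458 with the replicate block, where 18.9% of all genes were called). LMNB2 held 603 and 629 CPM in the inputs and 481 and 503 after capture (-0.33 ± 0.17, adjusted p = 0.249). LMNB1, gene and construct together, held 5650 and 4440 CPM before and 5830 and 6190 after (0.25 ± 0.21, 95% interval -0.21 to 0.71, adjusted p = 0.47).

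**Figure D2:**
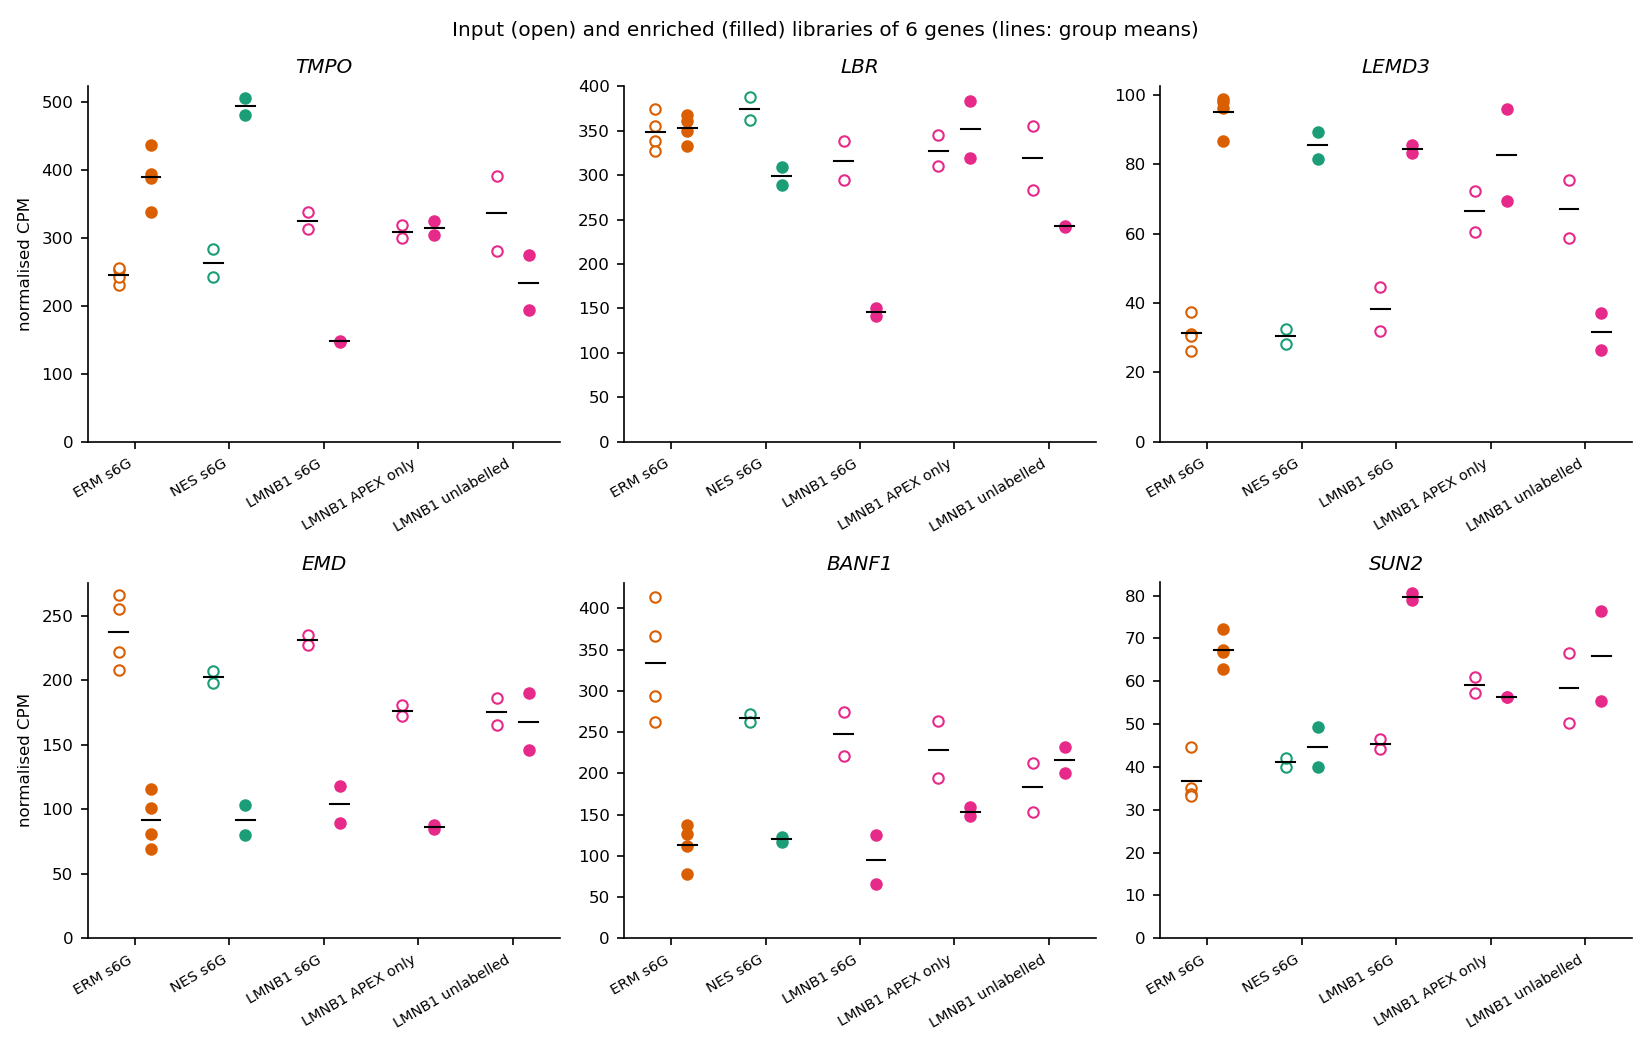
Normalised CPM of 6 genes in each input (open) and enriched (filled) library of the ERM, NES and LMNB1 constructs, with lines at group means. TMPO rises after capture with ERM and NES and falls with LMNB1 and s6G, while LEMD3 rises in all 3 s6G arms and EMD and BANF1 fall in them.

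In the APEX-only arm of LMNB1, without a nucleoside, EMD alone was called, from 181 and 172 CPM down to 84.4 and 87.5 (-1.04 ± 0.20, edgeR adjusted p = 0.0337), where 1.43% of all genes were called. The call was lost when any 1 of the 4 libraries was left out (adjusted p = 0.249 to 0.305), with the fold change at -1.10 to -1.04, and with total counts (-0.89 ± 0.20, adjusted p = 0.0545). LMNA (-0.99 ± 0.23) and LMNB2 (-0.74 ± 0.17) lay next to the threshold, each with an adjusted p = 0.0554, and passed it with the replicate block (0.0371 and 0.0439, 4.08% of all genes called). LMNA held 94.2 and 98.8 CPM before and 41.6 and 55.7 after capture, and LMNB2 692 and 664 before and 432 and 379 after. LEMD3 averaged 66.5 CPM before and 82.8 after capture.

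LBR and TMPO, which had fallen with s6G, stayed near input in the APEX-only arm. LBR held 345 and 310 CPM before and 384 and 319 after capture (0.10 ± 0.18), and TMPO 318 and 299 before and 324 and 304 after (0.02 ± 0.21). Tested as a difference between arms, s6G minus APEX only was -1.22 ± 0.26 for LBR (95% interval -1.79 to -0.65, edgeR adjusted p = 0.0729) and -1.16 ± 0.30 for TMPO (-1.81 to -0.52, adjusted p = 0.111). edgeR called 0 of the 10 genes there (4 at an unadjusted p under 0.05) and 0% of all genes. DESeq2 called both, with adjusted p-values of 0.00038 and 0.00391, where 11% of all genes were called, as did edgeR on the compared libraries alone (0.0263 and 0.0219), where 4.14% were.

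In the unlabelled arm of LMNB1, which had no biotin-phenol, edgeR called 0 of 10 genes (3 at an unadjusted p under 0.05, and 1 with DESeq2, which called 2.76% of all genes, against 0.0363% with edgeR). LEMD3 lay in the opposite direction to the s6G arm, at 75.4 and 58.7 CPM before and 37.1 and 26.5 after capture (-1.10 ± 0.28, edgeR adjusted p = 0.124). EMD and BANF1, which had fallen with s6G, overlapped their inputs here, at 190 and 146 CPM after capture against 165 and 186 (-0.07 ± 0.20) and at 200 and 232 against 213 and 153 (0.24 ± 0.29). Set against this arm, the s6G enrichment of LEMD3 differed by 2.24 ± 0.39 (4.72-fold, 95% interval 1.39 to 3.09, adjusted p = 0.0188), the 1 call of the group where 2.69% of all genes were called. The call was lost without the second s6G enriched library, the second s6G input or the first unlabelled input (adjusted p = 0.0566, 0.108 and 0.0596, with the difference at 2.29, 2.07 and 2.14) and in a fit of the compared libraries alone (adjusted p = 0.0961), which called 0% of all genes. BANF1 differed by -1.62 ± 0.41 (adjusted p = 0.0536) and EMD by -1.09 ± 0.28 (0.0593), and both passed with the replicate block (0.0238 and 0.0473, 5.72% of all genes called). No gene of the group differed between the APEX-only and unlabelled arms in edgeR (0 called, 2 at an unadjusted p under 0.05, 0 with DESeq2, and 0% of all genes).

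The authors' deposited table for LMNB1 gave the same signs as these fits for the genes called here. With s6G it held log2 fold changes of -1.32 for EMD (adjusted p = 0.000106), -1.30 for TMPO (1.58e-05), -1.29 for LBR (2.54e-05), -1.52 for BANF1 (0.000254), -0.88 for LMNA (0.016) and 0.97 for LEMD3 (0.0149), with SUN2 at 0.65 (adjusted p = 0.1). By the authors' deposited table, of the 10 genes 1 was higher and 5 were lower at an adjusted p under 0.05, where 7.29% of the 13877 genes with an adjusted p were higher and 14.7% lower. In its APEX-only arm 0 were higher and 4 lower (LMNB2 -0.78, LMNA -1.03, EMD -1.08 and BANF1 -0.61), against 4.62% and 12.3% of 9999 genes.

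**Figure D3:**
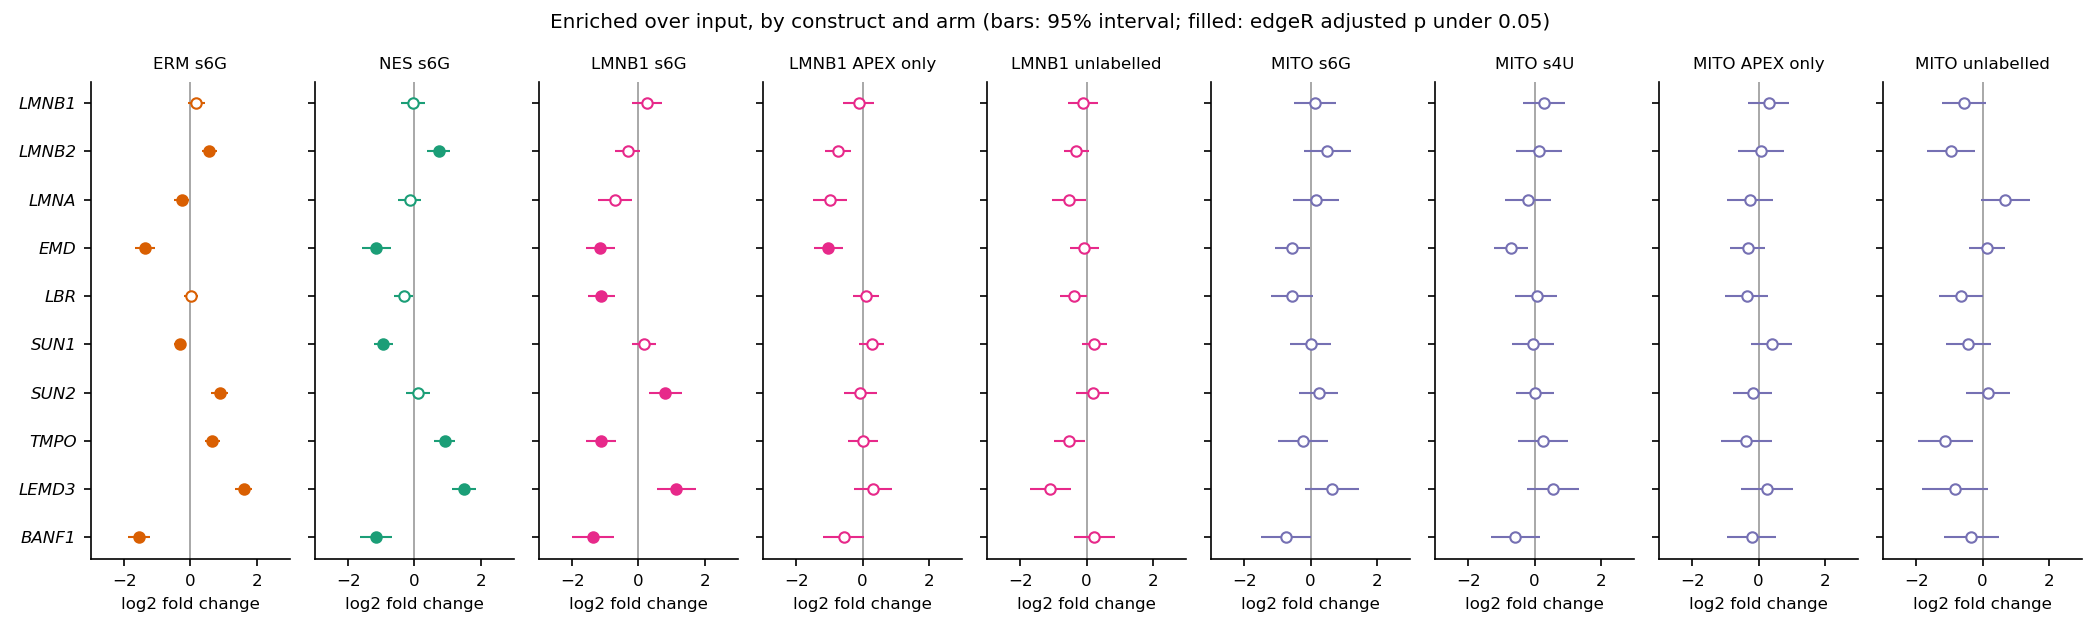
Log2 fold change of enriched over input for each gene in the 9 arms, with 95% intervals and filled points at an edgeR adjusted p under 0.05. Calls lie in the s6G arms of ERM (8), NES (6) and LMNB1 (6) and in the APEX-only arm of LMNB1 (1), and none in the MITO arms or the unlabelled LMNB1 arm.

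Differences between the lamina and the other locations were tested in 1 fit of the s6G arms of all 4 constructs. The comparisons share the LMNB1 libraries. TMPO differed most: its enrichment at the lamina was lower than in the cytosol (-2.16 ± 0.29 on the log2 scale, edgeR adjusted p = 1.03e-05) and lower than at the ER membrane (-1.91 ± 0.25, adjusted p = 9.55e-06). LBR was also lower at the lamina, at -0.91 ± 0.22 against NES (adjusted p = 0.00319) and -1.25 ± 0.20 against ERM (adjusted p = 5.52e-05). LMNB2 was likewise lower, at -1.17 ± 0.27 against NES (adjusted p = 0.00219) and -1.01 ± 0.24 against ERM (adjusted p = 0.00243). SUN1 was higher at the lamina than in the cytosol (0.99 ± 0.22, adjusted p = 0.00116), with a difference of 0.37 ± 0.19 from ERM (adjusted p = 0.128).

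These make 4 of 10 genes called between LMNB1 and NES, where 34.6% of all genes were called, and 3 of 10 between LMNB1 and ERM, where 32.8% were. With the replicate block, which called 48.5% and 48% of all genes, LMNA (-0.68, adjusted p = 0.00628) and SUN2 (0.58, adjusted p = 0.0238) joined the NES comparison. LMNA (-0.55, adjusted p = 0.0101), SUN1 (0.37, adjusted p = 0.0403) and LEMD3 (-0.57, adjusted p = 0.012) joined the ERM comparison, which then had 6 calls. With total counts the LBR difference from NES was -0.65 ± 0.30 (adjusted p = 0.0992, 30.2% of all genes called). With either set of ERM libraries alone the same 3 genes were called against ERM, TMPO at -2.02 and -1.87, LBR at -1.32 and -1.25 and LMNB2 at -0.93 and -1.15, where 27.8% and 26.6% of all genes were called.

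EMD and BANF1, which fell with ERM, NES and LMNB1, and LEMD3, which rose with all 3, were not called between LMNB1 and NES or ERM without the block and with all libraries. With MITO and s6G, EMD and BANF1 also lay lower after capture and LEMD3 higher, without a call in the main fit. The LMNB1 minus NES difference was -0.13 ± 0.31 for EMD (95% interval -0.77 to 0.52), -0.33 ± 0.39 for BANF1 (-1.13 to 0.47) and -0.47 ± 0.32 for LEMD3 (-1.13 to 0.20). Against ERM it was 0.10 ± 0.27 for EMD (-0.45 to 0.66), 0.09 ± 0.33 for BANF1 (-0.61 to 0.78) and -0.57 ± 0.28 for LEMD3 (-1.14 to 0.00). LEMD3 was called against ERM with the replicate block, as given above, and without the second LMNB1 s6G input (-0.88 ± 0.31, edgeR adjusted p = 0.0464). EMD differed from ERM libraries 1 and 2 by 0.54 ± 0.26 and from 3 and 4 by -0.35 ± 0.26, neither called.

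**Figure D4:**
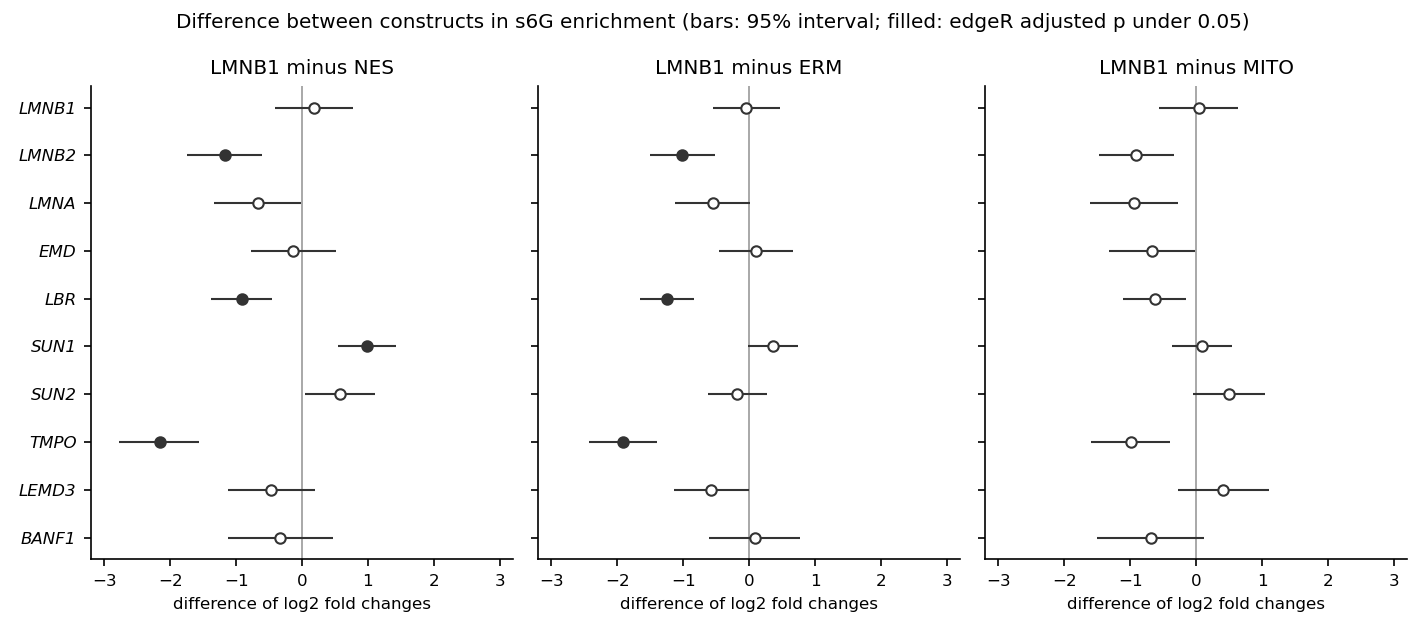
Difference of the s6G log2 fold change between LMNB1 and each other construct, with 95% intervals and filled points at an edgeR adjusted p under 0.05. TMPO (-2.16 and -1.91), LBR and LMNB2 lie to the left against both NES and ERM, and SUN1 lies to the right against NES (0.99).

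In the mitochondrial matrix, which nuclear-encoded mRNAs do not normally enter, edgeR called 0 of 10 genes in the s6G arm (1 at an unadjusted p under 0.05, 0 with DESeq2), the s4U arm (1 and 1, with 4.24% of all genes called by DESeq2), the APEX-only arm (0 and 0) and the unlabelled arm (2 and 0). All genes were called at 0.317%, 0.112%, 0.271% and 9.87%. The fold changes ran from -0.75 (BANF1) to 0.65 (LEMD3) with s6G, from -0.72 (EMD) to 0.56 (LEMD3) with s4U, from -0.37 (TMPO) to 0.40 (SUN1) for APEX only, and from -1.13 (TMPO) to 0.69 (LMNA) for the unlabelled arm. LEMD3 lay at 0.65 ± 0.38 with s6G, 0.56 ± 0.37 with s4U and 0.26 ± 0.37 in the APEX-only arm, with overlapping libraries each time. BANF1 held 224 and 197 CPM in s6G inputs and 137 and 114 after capture (-0.75 ± 0.35, edgeR adjusted p = 0.566, and 0.0323 with the replicate block, which called 6.82% of all genes). EMD with s4U lay at 176 and 155 CPM before and 103 and 98.5 after (-0.72 ± 0.25, adjusted p = 0.497, and 0.0488 with the block, which called 4.98%). With s6G the EMD inputs lay at 180 to 195 CPM and the enriched libraries at 118 to 138, and it was not called.

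In the unlabelled MITO arm, the shallowest of the series, LMNB2 lay at 468 and 420 CPM before and 120 and 309 after capture (-0.96 ± 0.35, edgeR adjusted p = 0.0863) and TMPO at 318 and 204 before and 93.0 and 135 after (-1.13 ± 0.39, adjusted p = 0.0752). With the replicate block both were called (adjusted p = 0.00555 and 0.00595, 20.5% of all genes called). Scaling by total counts shifted the all-gene median by -0.87 (s6G) and -0.73 (APEX only), and EMD (-1.46), LBR (-1.43) and BANF1 (-1.61) were then called lower in the first of these arms and EMD (-1.06) in the other. Of all genes 18.3% were then called lower and 0.251% higher with s6G, and 7.27% and 0.198% in the APEX-only arm.

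Between LMNB1 and MITO the s6G enrichment differed in 0 of 10 genes in edgeR without the replicate block, where 3.88% of all genes were called. Of the 10 genes 5 had an unadjusted p under 0.05, and DESeq2 called 4, with 10.8% of all genes. TMPO was nearest (-0.99 ± 0.29, adjusted p = 0.0559), followed by LMNB2 (-0.91 ± 0.28, adjusted p = 0.0637). The replicate block, which called 19.6% of all genes, called 5: LMNB2 (-0.90), LMNA (-0.91), LBR (-0.63), TMPO (-0.94) and BANF1 (-0.76). Scaling by total counts shifted the all-gene median by 1.17 here. Then 4 genes were called higher (LMNB1, SUN1, SUN2 and LEMD3) and 0 lower, where 37.9% of all genes were called higher and 0.273% lower.

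Other proteins of the nuclear envelope were described from 3 lists. By direction, 34.3% of all tested genes were called higher and 28.9% lower with ERM, and 28.7% and 26.4% with NES. At the lamina with s6G the shares were 5.37% and 7.64%. Between LMNB1 and NES 2479 of 16139 genes were called higher and 3100 lower, and between LMNB1 and ERM 2353 and 2939. Of 20 genes of LINC and other envelope membrane proteins, 17 were tested with ERM, 11 of them higher and 2 lower (median 0.52, against 0.11 over all genes, of which 63.2% were called), led by the torsin ATPase TOR1B (1.80) and the torsin activators TOR1AIP1 (1.66 ± 0.14) and TOR1AIP2 (1.63 ± 0.16). With NES, where 55.1% of all genes were called, 8 were higher and 3 lower (median 0.23, against 0.01), led by TOR1AIP2 (1.67 ± 0.23), TOR1B (1.39) and TOR1AIP1 (1.12 ± 0.19). At the lamina with s6G 2 of 18 were higher, the LEM-domain genes ANKLE2 (1.31 ± 0.19, edgeR adjusted p = 0.00115) and LEMD2 (0.79 ± 0.22, adjusted p = 0.0335), and 1 was lower, LRRC59 (-0.99 ± 0.20). The median there was 0.36, against 0.13, and 13% of all genes were called. Against ERM, where 32.8% of all genes were called, the lamina was lower for 7 of 18 genes and higher for 1, with TOR1AIP1 (-1.96 ± 0.33), LRRC59 (-1.50 ± 0.28) and TOR1AIP2 (-1.33 ± 0.32) the lowest. Against NES, where 34.6% of all genes were called, 6 were higher and 4 lower, led by ANKLE1 (2.87 ± 0.61), the nesprin gene SYNE4 (2.59 ± 1.01) and TMEM120A (1.50 ± 0.48).

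The list of lamin processing and partner proteins holds the enzymes that farnesylate, cleave and methylate lamins. At the lamina 0 of 14 tested genes were higher and 3 lower (median -0.46, against 0.13, with 13% of all genes called): the prelamin A protease ZMPSTE24 (-1.33 ± 0.32, edgeR adjusted p = 0.0161), the sterol reductase DHCR7 (-1.26 ± 0.28) and the methyltransferase ICMT (-0.84 ± 0.18). With ERM 6 genes of the list were higher and 4 lower (median 0.23, with 63.2% of all genes called), led by ICMT (1.37 ± 0.10), the ESCRT gene CHMP7 (0.81 ± 0.13) and the protease gene RCE1 (0.69 ± 0.14). With NES 5 were higher and 4 lower (median 0.24, with 55.1% of all genes called), led by CHMP7 (1.35 ± 0.19), ICMT (1.20 ± 0.14) and the heterochromatin protein gene CBX5 (0.64 ± 0.16). Between LMNB1 and ERM 7 of 14 genes were lower and 1 higher, where 32.8% of all genes were called, with ICMT (-2.32 ± 0.27, adjusted p = 2.19e-06), ZMPSTE24 (-1.72 ± 0.34) and DHCR7 (-1.04 ± 0.29) the lowest. Against NES, where 34.6% were called, 5 were lower and 1 higher, with ICMT at -2.16 ± 0.31, CHMP7 at -1.32 ± 0.32 and CBX5 at -1.30 ± 0.36.

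The third list holds the proteins of the nuclear pore, through which lamins enter the nucleus. At the lamina 6 of 32 were higher and 1 lower (median 0.24, against 0.13, with 13% of all genes called), led by AHCTF1, the gene of the chromatin-binding nucleoporin ELYS (1.74 ± 0.21, edgeR adjusted p = 0.000744), and the nuclear basket genes NUP153 (1.10 ± 0.22) and TPR (1.01 ± 0.20). With ERM 11 were higher and 15 lower (median -0.14), where 63.2% of all genes were called, with NUP188 (-1.89 ± 0.12), AAAS (-1.68 ± 0.17) and NUP210 (-1.47 ± 0.11) the lowest. With NES the counts were 9 and 15 (median -0.22), where 55.1% were called, with NUP210 (-1.99 ± 0.16), NUP188 (-1.94 ± 0.16) and AAAS (-1.75 ± 0.25) the lowest. Between LMNB1 and NES, where 34.6% of all genes were called, 14 pore genes were higher at the lamina and 2 lower, led by TPR (1.84 ± 0.24), NUP85 (1.76 ± 0.25) and NUP107 (1.68 ± 0.27). Between LMNB1 and ERM the counts were 13 and 2, where 32.8% were called, led by TPR (1.69 ± 0.21), NUP107 (1.60 ± 0.23) and AHCTF1 (1.55 ± 0.23). With total counts the ERM count of pore genes was 15 higher and 12 lower and the median 0.17, so its sign rests on the scaling, with 44.5% of all genes then called higher and 21% lower. At the lamina it was 11 higher and 0 lower, with 9.35% and 5.32% of all genes.

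The genes differ in a feature the choice of members did not use, the length of the gene. BANF1 (1.65 kb) and EMD (2.23 kb) are the shortest and LEMD3 (78.8 kb) the longest, and the rest span 21.3 to 60.4 kb. Tested genes under 3 kb had a median of 0.233 at the lamina and a lower quartile of -0.597, so EMD (-1.16) and BANF1 (-1.37) lay below that quartile. With ERM the median was -0.147 and the lower quartile -1.10, again above both genes. With NES (median -0.191, lower quartile -1.16) EMD and BANF1, each at -1.15, lay at the quartile. LEMD3 lay above the upper quartile of genes of 30 to 100 kb with ERM (0.808), NES (0.872) and LMNB1 (0.666). TMPO and LBR lay below the lower quartiles of their classes at the lamina (-0.521 and -0.473), and within them or above them with ERM and NES.

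**Figure D5:**
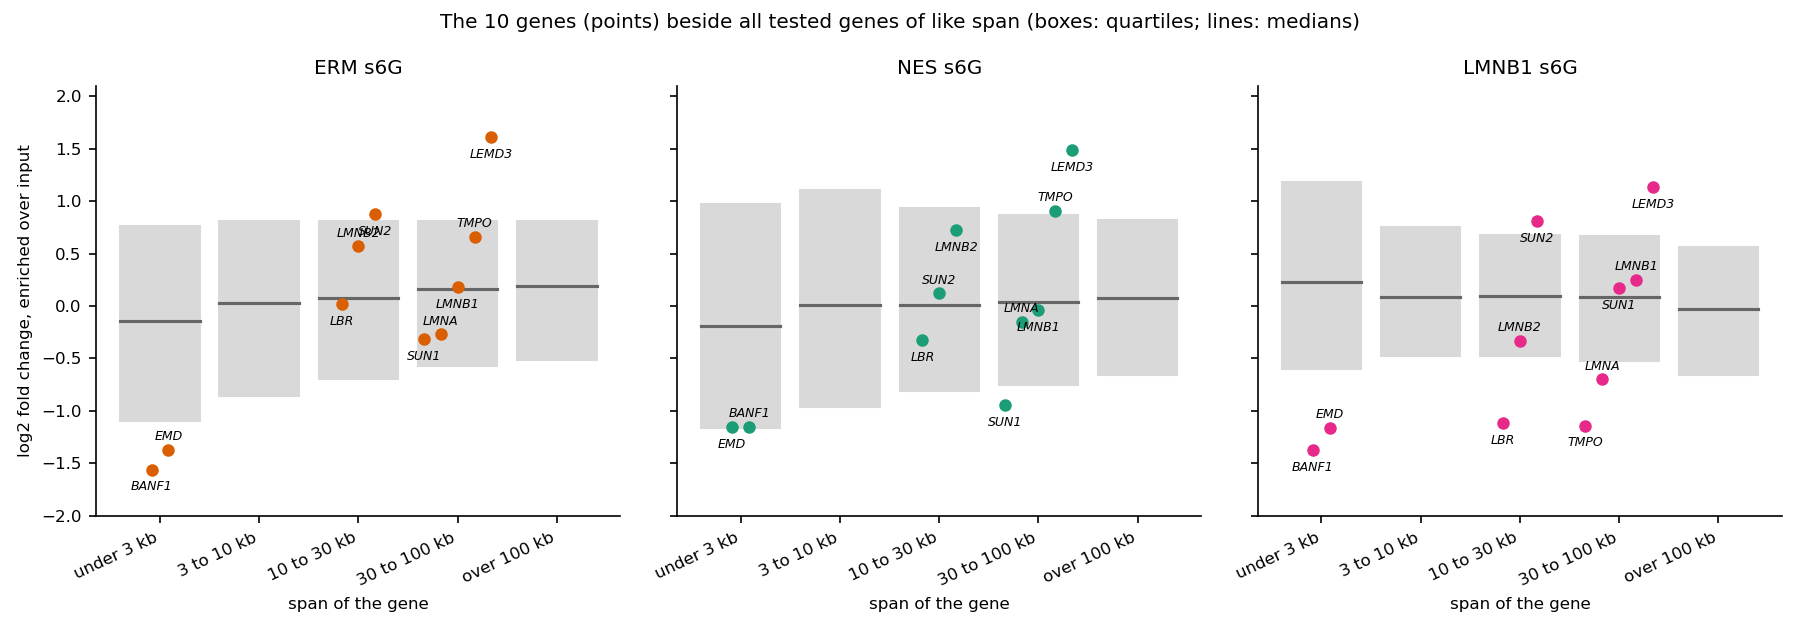
Log2 fold change of enriched over input with s6G for the 10 genes (points) by the span of the gene, beside all tested genes of the same span class (grey boxes from the lower to the upper quartile, line at the median). EMD and BANF1 lie at or below the lower quartile of genes under 3 kb for ERM, NES and LMNB1, and LEMD3 lies above the upper quartile of its class for all 3.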

How the data were processed

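The authors deposited raw counts per Ensembl gene for 40 libraries. HTSeq 0.7.2 and HISAT2 2.1.0 appear in the submitters' processing notes, beside SAMtools, DESeq2 and GRCh38, and the strand setting is not given in the sources used here. Per the file headers, the deposited comparison tables hold log2 fold changes with adjusted p-values (LMNB1) or unadjusted p-values (ERM over NES). The deposited signal column of mean normalized counts was not used. A deposited table of MITO log2 TPM values was used only for the scale check under the other observations.

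The groups follow the sample titles. For the ERM enriched and LMNB1 s6G libraries another label names s4U, while the titles and the series design name s6G. Counts were tested with edgeR 4.0.16 (R 4.3.3; TMM, filterByExpr with a minimum count of 10, robust quasi-likelihood, Benjamini-Hochberg adjustment, threshold 0.05) in 5 fits: MITO (15151 genes), ERM with NES (15619), LMNB1 (16525), the inputs (15305) and the s6G arms (16139). The 31 comparisons were repeated with DESeq2 1.42.0, RLE scaling, total counts, no filter, a filter at 5 CPM, the compared groups alone, the replicate block, and leaving out each library. Fits with 1 set of ERM libraries were added after seeing the data.

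An enriched and an input library of the same number come from the same biological replicate by the series design. The main fits left this pairing out, and the replicate block used it. Their deviations from the group means correlated at 0.35 to 0.64 in the labelled MITO and LMNB1 arms, 0.15 to 0.20 for ERM, 0.19 for NES, and 0.10 (MITO) and 0.041 (LMNB1) in the unlabelled arms. The ERM libraries form 2 sets (1 with 2, and 3 with 4): an enriched library also correlated at 0.013 to 0.21 with the other input of its set, and at -0.26 to -0.065 with those of the other set. For the pairs of input arms that were compared, the correlations between libraries of number 1 ran from -0.52 to 0.58. With 2 libraries per arm, these values cannot tell whether a shared number there stands for a shared replicate or batch.

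The named genes are all 10 members and, from each other list, up to 3 called genes, those farthest from 0 on the side with more calls in each comparison. LRRC59 at the lamina was named after its values were seen. The members and lists were chosen with earlier results of these data known.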

Additional observations from a re-analysis of the deposited data

Results flagged for a closer look

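The second ERM s6G input stood apart for LMNB2, the lowest of 4, with a gap to its neighbour of 0.909 of the group's range, more than Dixon's test allows at 95%. Its level was 472 CPM, against 543, 551 and 549 in the others. In all, 20 groups of 4 were looked at, and chance sets off about 1 in 20.

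Differences between arms or constructs passed the test for several genes. The s6G enrichment of LEMD3 at the lamina exceeded that of the unlabelled arm by 2.24. Between LMNB1 and NES, TMPO differed by -2.16, LMNB2 by -1.17, LBR by -0.91 and SUN1 by 0.99. Between LMNB1 and ERM, TMPO differed by -1.91, LBR by -1.25 and LMNB2 by -1.01. The last 7 compare different cells and sets of libraries, which cannot be told apart from the location.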

How the results depend on the processing

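Of 310 gene results (10 genes in 31 comparisons), 308 kept their side of the threshold, and their direction where called or their value within 1 SE where not, with RLE scaling, 305 with a stricter filter, 302 with the compared groups alone, 301 with no filter, 290 with DESeq2, 283 with the replicate block and 247 with total counts. The 1 that reversed was LMNA with ERM and total counts (0.04). Where the number of called genes moved, the cause was not tested. With the replicate block it was 1 in the s6G and 1 in the s4U arm of MITO, 2 in the unlabelled MITO arm, 3 in the APEX-only LMNB1 arm, 2 for ERM minus NES, 3 for LMNB1 s6G minus unlabelled, 6 for LMNB1 minus ERM, 5 for LMNB1 minus MITO and 1 between the s6G and APEX-only inputs of LMNB1. DESeq2 gave 1 for s4U MITO, 3 for APEX-only LMNB1, 1 for unlabelled LMNB1, 2 for ERM minus NES, 2 for s6G minus APEX only, 3 for s6G minus unlabelled, 4 for LMNB1 minus MITO, and 1 each for the LMNB1 s6G against APEX-only inputs and for ERM against MITO inputs. Total counts gave 3 (s6G MITO), 1 (APEX-only MITO), 0 (APEX-only LMNB1), 2 (ERM minus NES) and 4 (LMNB1 minus MITO). No filter gave 2 (unlabelled MITO), 1 (unlabelled LMNB1), 1 (s6G minus APEX only), 2 (s6G minus unlabelled) and 1 for each of LMNB1 s6G against APEX-only inputs, ERM against MITO inputs, and the difference of the s6G effects on inputs. The compared groups alone gave 3 (APEX-only LMNB1), 2 (s6G minus APEX only) and 0 (s6G minus unlabelled), and the stricter filter 3 for the last. Shares of all genes called with no filter or the stricter filter are not given here, so those counts have no background beside them. The replicate block changed no other call than those named in the report or counted here, and among inputs of different arms it pairs libraries by number only (LMNB1 then 0.93, adjusted p = 0.0322).

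With 1 library left out at a time the count ran from 0 to 1 for unlabelled MITO (1 without its second enriched library), 3 to 5 for LMNB1 s6G (3 without its second enriched library), 0 to 0 for APEX-only LMNB1, 0 to 1 for unlabelled LMNB1 (1, LEMD3 at -1.35, without its first enriched library), 0 to 2 for s6G minus unlabelled (2 without the first s6G enriched or either unlabelled enriched library) and 0 to 2 for LMNB1 minus MITO (1 or 2 without the first LMNB1 or either MITO enriched library). With ERM libraries 1 and 2 alone, or 3 and 4 alone, an alternative chosen after seeing the data, ERM minus NES had 2 calls each time, ERM 8 and 7, and LMNB1 minus ERM 3 and 3. A group left with 1 library is assumed to vary like the others of its fit. Shares of all genes called are not given for fits with 1 library left out.

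Total counts moved the higher share of all calls from 91.7% to 1.35% in the s6G, from 100% to 14.4% in the s4U and from 92.7% to 2.65% in the APEX-only arm of MITO, from 28.7% to 65.9% in the APEX-only arm of LMNB1, from 56% to 79.9% for s6G minus unlabelled, from 44.4% to 60.5% for LMNB1 minus NES and from 29.9% to 99.3% for LMNB1 minus MITO. In the unlabelled MITO arm it moved from 58.6% to 84.6%, and to 75.2% with RLE scaling. Depth limits the unlabelled MITO arm, where 1 library held 7 to 41 reads per gene.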

Other observations

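The deposited MITO table of log2(TPM + 1) values has 8 columns, 1 per group. The sum was taken for the s6G enriched column only, and was 2000000 on a linear scale. Gene lengths solved from the counts and 3 of its columns followed the genomic span of the gene, introns included (Spearman's rho 0.96 across 10887 genes, which are not independent, with 84.5% within 20% of the RefSeq span up to 1 common factor). In the 5 columns not used to solve them, these lengths gave 39.1% to 100% of genes within 1% of the deposited values, up to a factor per column. By these lengths LEMD3 counts as 38.0 times as long as BANF1 and EMD as 1.12 times. SUN2 did not follow its span, at 28.7 times BANF1 by these lengths and 12.9 times by RefSeq. TPM of this kind is not a level per length of mature mRNA, and no such level was compared between the 10 genes.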
